A study of Arabidopsis thaliana with 12 samples.

Results

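The *octuple* mutant of *Arabidopsis thaliana*, in which *CBP60b*, *CBP60c*, *CBP60d*, *CBP60e*, *CBP60f*, *EDS1*, *PAD4* and *NDR1* are mutated together, was compared with the wild type (WT) across all genes. The comparison used 6 of the 12 RNA-seq libraries of the study, 3 of *octuple* and 3 of WT, and paired them by their replicate number. Of the 23784 genes in the count table, 19256 had enough counts to be tested. Each library was made from the aerial parts of pooled seedlings, 20 to 30 plants that were 2 weeks old and had grown under 16 h of light per day. The remaining libraries came from the *quintuple* mutant (*cbp60b;c;d;e;f*, 3 libraries), which lacks the CBP60b clade and keeps *EDS1*, *PAD4* and *NDR1*, and from *epn* (*eds1;pad4;ndr1*, 3 libraries), which lacks those 3 immune genes and keeps the clade. WT was the Columbia-0 accession. The sources used here take the *eds1*, *pad4* and *ndr1* alleles from earlier work and do not state which *quintuple* line was sequenced. The *quintuple* seedlings die at about the age of harvest, so changes of dying tissue and of the mutations cannot be told apart in that genotype. In bulk tissue, fewer cells of a type and less RNA per cell cannot be told apart.

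CBP60 proteins are plant-specific transcription factors, most of which bind calmodulin, the calcium sensor of the cell. CBP60g and SARD1 drive transcription of genes for the defence hormone salicylic acid (SA) and for systemic acquired resistance (SAR), and the CBP60b clade is the ancient branch of the family. Intracellular NLR receptors recognise pathogen effectors and start effector-triggered immunity (ETI), for which receptors with a TIR domain need EDS1 and PAD4 and many receptors with a coiled coil need NDR1. In leaves SA signalling often opposes signalling by jasmonic acid (JA), the hormone of wounding and of defence against necrotrophs, and pattern-triggered immunity (PTI) starts from receptors at the cell surface. The comparison of *octuple* with WT asks which genes still differ from WT when the clade is lost together with this ETI route.

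Levels are given as CPM, the counts of a gene relative to the total of its library, scaled between libraries by TMM factors, in the order of replicates 1, 2 and 3. Fold changes are on the log2 scale with the standard error of the fit, with *octuple* over WT unless another genotype is named. A gene was called a differentially expressed gene (DEG), up or down, when its fold change was at least 2 and its adjusted p below 0.05 by edgeR's quasi-likelihood test (Benjamini-Hochberg adjusted) over all genes tested. Counted fragments were 43295279 to 44294404 per library in *octuple* and 41198211 to 44119910 in WT. Genes of green tissue were at high levels in both genotypes, with 35836 to 42851 CPM summed over 4 Rubisco small subunit genes in *octuple* and 43084 to 45461 CPM in WT, while summed root, seed and floral marker lists each stayed at or below 2.2 CPM. Replicate 3 was set apart in every genotype. *CCA1*, a morning gene of the circadian clock, had 138, 99.1 and 1.17 CPM in *octuple* and 137, 97.7 and 1.3 CPM in WT, and *TOC1*, an evening gene, had 18.5, 19.8 and 104 CPM in *octuple* and 10.6, 13.4 and 100.4 CPM in WT. None of 11 clock genes was called between *octuple* and WT by edgeR's quasi-likelihood test, by DESeq2 or with any library left out, and 2 of them had an unadjusted p below 0.05, against 31.2% of all genes tested.

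In *octuple*, 977 of the genes tested (5.07%) were up-DEGs and 141 (0.732%) were down-DEGs. The median log2 fold change was 2.27 among up-DEGs and -1.66 among down-DEGs, against -0.01 over all genes tested. The 3 *octuple* libraries lay wholly above the 3 WT libraries for 870 up-DEGs and wholly below them for 100 down-DEGs, and 4235 of all genes tested (22.0%) had no overlap between the groups. The counts leaned on replicate 1 and on the pairing. Without WT replicate 1 there were 513 up-DEGs and 39 down-DEGs, without *octuple* replicate 1 there were 621 and 76, without both there were 468 and 39, and without the pairing by replicate number there were 342 and 29. As 20 up-DEGs were at 0 counts in every WT library and 5 down-DEGs at 0 counts in every *octuple* library, fold changes of such genes are given below only as lower bounds. Of the 123 DEGs named in the text, the fold change of 32 moved by over 1.5 times when a single library was left out. In the paired fit, the partner of a library left out no longer informs the difference between genotypes. Leaving out either library of a replicate number is therefore nearly the same check, and values for both are not separate evidence.

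**Figure D1:**
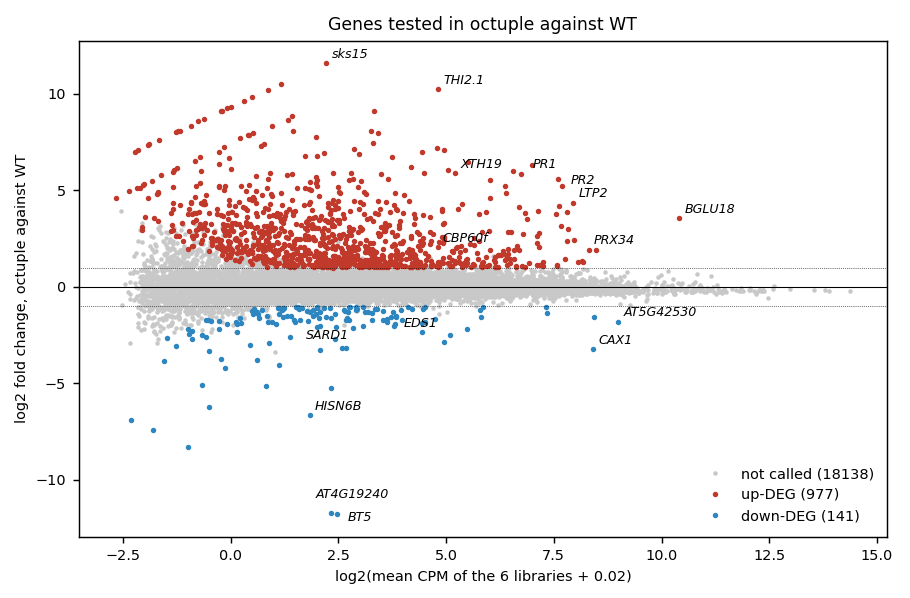
Log2 fold change of *octuple* over WT (vertical axis) against the log2 mean CPM of the 6 libraries (horizontal axis) for every gene tested, with dotted lines at a fold change of 2. The 977 up-DEGs (red) outnumber the 141 down-DEGs (blue), and *BGLU18*, *PRX34* and *LTP2* are among the up-DEGs at the highest levels. The uppermost slanted row of points at the left holds genes with 0 counts in all libraries of a genotype, and their plotted fold change depends on a small added count.

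Transcripts of the 8 mutated genes were still present in *octuple*, with 1 gene up, 1 down and 6 not called. A transcript level does not show whether a mutated gene still makes protein, so these values check the labels only in part. *CBP60f* rose by 2.04 ± 0.09, with 55.3, 55.3 and 24.3 CPM in *octuple* and 12.9, 13 and 6.43 CPM in WT and no overlap between the genotypes. It was also 1.02 above *quintuple* (28, 18.1 and 18.7 CPM) and 1.63 above *epn* (21.8, 14.8 and 7.55 CPM). *EDS1*, which encodes the lipase-like hub of TIR receptor signalling, fell to 5.91, 7.43 and 8.87 CPM in *octuple*, against 23.2, 17.9 and 22.3 CPM in WT (-1.52 ± 0.15). The *EDS1* level in *epn* was as low as in *octuple* (6.56, 4.39 and 4.14 CPM), whereas *quintuple* had 120.0, 71 and 111 CPM. *CBP60c* had 31.7, 26.8 and 30.2 CPM in *octuple* and 42.8, 47.5 and 47.1 CPM in WT without overlap, but at -0.63 it missed the 2-fold threshold. *PAD4* had 3.47, 3.0 and 3.54 CPM in *octuple* and 9.98, 4.82 and 4.66 CPM in WT, and *CBP60b* had 56.1, 47.1 and 42.9 CPM in *octuple* and 42.2, 41.7 and 44.1 CPM in WT. *CBP60d*, *CBP60e* and *NDR1* had log2 fold changes of -0.41, -0.77 and -0.51 and were not called. Outside the clade, *CBP60a* (*AT5G62570*), a negative regulator of immunity, rose by 1.24 ± 0.14 (60.6, 44.5 and 24.1 CPM in *octuple*, 19.9, 24.2 and 10.2 CPM in WT), although *octuple* replicate 3 fell just inside the WT range. Adjusted p was 4.34e-05 for *CBP60f*, 0.00129 for *EDS1* and 0.00193 for *CBP60a* by edgeR's quasi-likelihood test (Benjamini-Hochberg adjusted), and leaving out any 1 library ended none of these 3 calls.

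SA genes lay above WT in *octuple*: 11 of 18 genes of SA biosynthesis and signalling were up-DEGs, 1 was a down-DEG, and the list's median log2 fold change was 2.01. Over all genes tested, 5.07% were up-DEGs and 0.732% down-DEGs. The 4 biosynthesis genes of the list, *SID2*, *EDS5*, *PBS3* and *EPS1*, were all up-DEGs. *SID2*, which encodes the isochorismate synthase that makes most pathogen-induced SA, had 63.3, 31.7 and 56 CPM in *octuple* and 15.3, 11.5 and 5.13 CPM in WT (2.29 ± 0.33). *EDS5*, encoding the transporter that exports isochorismate from the chloroplast, had 25.9, 15.9 and 26.7 CPM in *octuple* and 8.37, 4.62 and 5.7 CPM in WT (1.88 ± 0.14). *PBS3*, whose enzyme joins isochorismate to glutamate, had 34, 16.2 and 32.5 CPM in *octuple* and 3.76, 1.23 and 3.1 CPM in WT (3.40 ± 0.13). For all 3 genes every *octuple* library lay above every WT library. *EPS1*, the last enzyme of the route, showed the smallest rise (1.06 ± 0.25). SA-degrading hydroxylases rose as well, *DLO1* by 4.23 ± 0.26 and *DMR6* by 2.52 ± 0.34.

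The pathogenesis-related genes that serve as SA reporters rose further. *PR1* had 470.1, 432 and 209 CPM in *octuple* and 52.8, 2.23 and 1.96 CPM in WT (5.58 ± 0.86). WT replicate 1 stood well above the other 2 WT libraries for *PR1*, yet the lowest *octuple* library was above it, and the fold change was 7.18 without *octuple* replicate 1, 7.17 without WT replicate 1 and 4.59 without replicate 2 of either genotype. *PR2*, a glucanase, had 433, 277 and 490.2 CPM in *octuple* and 23.2, 4.49 and 9.84 CPM in WT (5.22 ± 0.33), and *PR5*, a thaumatin-like protein, had 334, 243 and 542 CPM in *octuple* and 41.8, 8.86 and 19.9 CPM in WT (4.17 ± 0.36). *NIMIN1* and *NIMIN2*, whose proteins bind the SA receptor NPR1, rose by 3.18 and 2.15. *PR5* came to 4.77 without replicate 1 of either genotype, and *NIMIN1* to 2.40 without *octuple* replicate 3 and 2.41 without WT replicate 3. The transcription factor genes of the pathway did not follow. *SARD1* fell to 3.33, 0.842 and 3.73 CPM in *octuple*, against 11.4, 4.75 and 6.15 CPM in WT (-1.60 ± 0.32, no overlap). *WRKY70* also lay below WT in every library (26.5, 5.99 and 28.5 CPM in *octuple*, 50.1, 51.7 and 31.3 CPM in WT) but was not called at -1.30 ± 0.49. *CBP60g* had 14.4, 5.62 and 13 CPM in *octuple* and 9.15, 9.64 and 3.55 CPM in WT (0.58 ± 0.43), with overlap, and the receptor genes *NPR1*, *NPR3* and *NPR4* had 0.08, -0.00 and -0.34.

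**Figure D2:**
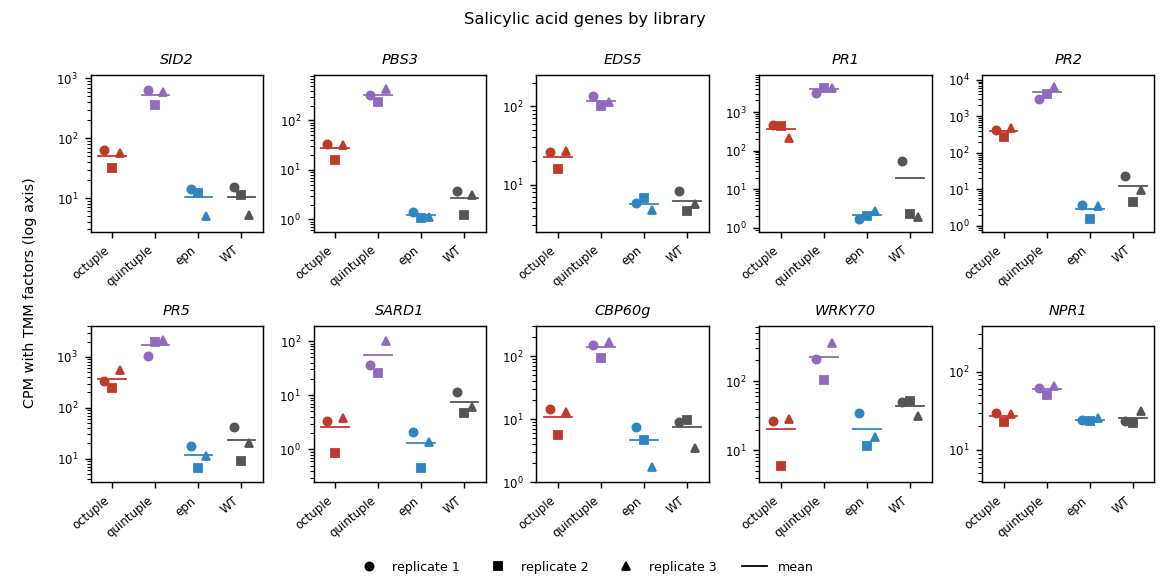
CPM of 10 SA genes in each library on a log axis, by genotype, with circles, squares and triangles for replicates 1, 2 and 3 and a line at the mean of the 3 libraries. *SID2*, *PBS3*, *EDS5*, *PR1*, *PR2* and *PR5* sit above WT in every *octuple* library and below *quintuple*, whereas *SARD1* and *WRKY70* sit below WT.

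Adjusted p of the 11 rising SA genes was 3.36e-05 (*PBS3*) to 0.0336 (*EPS1*), and that of *SARD1* was 0.018, by edgeR's quasi-likelihood test (Benjamini-Hochberg adjusted). Without the pairing by replicate number, 4 of the 18 SA genes were up-DEGs. *PR1* and *SARD1* were then not called (adjusted p 0.239 and 0.322 by edgeR's quasi-likelihood test (Benjamini-Hochberg adjusted)). Without WT replicate 1, 8 of the 18 were up-DEGs. *SID2*, *NIMIN1*, *EPS1* and *SARD1* then lost their calls, and the highest adjusted p over the single-library omissions was 0.0833 for *SID2*, 0.0877 for *NIMIN1*, 0.213 for *EPS1* and 0.181 for *SARD1* in the same test. *NIMIN1* and *SARD1* were also lost without *octuple* replicate 1, and *EPS1* without replicate 1 or 3 of either genotype. Against *quintuple*, in which 15.3% of 19643 genes tested were lower in *octuple* and 17.7% higher, all 18 SA genes were called lower. *SID2* had 629.8, 357 and 604 CPM in *quintuple*, *PR1* 3183, 4311 and 4285 CPM, *SARD1* 36.6, 25.3 and 102 CPM and *CBP60g* 152, 94.8 and 169 CPM, and log2 fold changes of *octuple* over *quintuple* were -3.38, -3.44, -4.32 and -3.69. Against *epn*, where 5.53% of 19238 genes tested were higher in *octuple* and 0.639% lower, 11 SA genes were called higher and none lower. *PR1* had 1.68, 2.0 and 2.71 CPM and *SARD1* 2.1, 0.455 and 1.34 CPM in *epn*, from which *octuple* differed by 7.34 for *PR1* and by 1.01, not called, for *SARD1*. The comparisons with WT, *quintuple* and *epn* share the *octuple* libraries and are therefore given side by side only.

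Genes of SAR and of its signal N-hydroxypipecolic acid (NHP) were called in part. Of 7 genes, 4 were up-DEGs (5.07% of all genes tested were), 2 were not called and 1, *ALD1*, had too few counts to be tested. *FMO1*, which makes NHP, had 2.94, 0.322 and 2.65 CPM in *octuple* and 0.441, 0 and 0 CPM in WT (4.17 ± 0.89), and *octuple* replicate 2 lay within the WT range. *UGT76B1*, which conjugates NHP and SA to glucose, had 7.91, 1.36 and 9.0 CPM in *octuple* and 0.907, 0.10 and 0.071 CPM in WT (4.25 ± 0.61). *AZI1*, a lipid transfer protein of SAR, had 81.6, 71.7 and 16 CPM in *octuple* and 4.9, 3.87 and 1.51 CPM in WT (3.95 ± 0.16), and *AED1*, an apoplastic protease, had 215, 148 and 280.4 CPM in *octuple* and 33.3, 9.14 and 20.08 CPM in WT (3.49 ± 0.25). These 4 calls held when any 1 library was left out, but only *AED1* was called without the pairing by replicate number. The values of 2 genes also moved widely. The fold change of *FMO1* came to 8.94 without *octuple* replicate 1, 8.97 without WT replicate 1, 3.15 without *octuple* replicate 3 and 3.10 without WT replicate 3. For *UGT76B1* these values were 5.58, 5.65, 3.30 and 3.28. The 2 genes upstream of *FMO1* showed no rise: *ALD1* had 0.0482, 0 and 0 CPM in *octuple* and 2.28, 0.0251 and 0 CPM in WT, nearly all of it in WT replicate 1, and *SARD4* had a log2 fold change of -0.49. *FMO1* and *AED1* were called lower than in *quintuple*, with log2 fold changes of -4.92 and -2.55.

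JA output genes had the highest median change of the lists described. All 14 had higher fitted levels in *octuple* than in WT, 11 were up-DEGs (5.07% of all genes tested were), and the median log2 fold change of the 14 was 5.08. The 11 calls were kept when any 1 library was left out, and 8 of the 14 were called without the pairing. *THI2.1*, a thionin toxic to fungi, had 107, 13.1 and 47.9 CPM in *octuple* and 0.0259, 0.0502 and 0.0473 CPM in WT, a ratio of summed counts of 1349 (95% interval 578 to 4157), where the interval covers counting error only. *VSP1* and *VSP2*, vegetative storage proteins induced by wounding, had 142, 103 and 135 CPM and 292, 218 and 235 CPM in *octuple*, against 2.2, 1.61 and 4.78 CPM and 43.1, 19.3 and 54.5 CPM in WT (5.53 ± 0.25 and 2.78 ± 0.24). *NATA1*, which makes N-acetylornithine, had 86.4, 58.1 and 19.2 CPM in *octuple* and 1.01, 0.0502 and 0.118 CPM in WT (7.21 ± 0.38). The chitinase gene *PR3* and the hevein-like gene *PR4*, targets of both JA and ethylene, rose by 6.49 ± 0.16 and 3.16 ± 0.10. *PR3* had 143, 78.5 and 47.7 CPM in *octuple* and 1.22, 0.904 and 0.733 CPM in WT, and *PR4* had 512, 318 and 268 CPM in *octuple* and 53.8, 43.1 and 26.2 CPM in WT, so that for both genes the genotypes were separated by a wide gap. *TAT3*, a tyrosine aminotransferase, rose by 4.62 ± 0.84, which became 6.59 without replicate 1 of either genotype, 3.61 without *octuple* replicate 3 and 3.58 without WT replicate 3. *NATA1* came to 8.69 without *octuple* replicate 1, 8.71 without WT replicate 1, 6.61 without *octuple* replicate 2 and 6.60 without WT replicate 2. Adjusted p of the 11 genes was 4.71e-06 (*PR3*) to 0.0132 (*TAT3*) by edgeR's quasi-likelihood test (Benjamini-Hochberg adjusted).

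The plant defensins stood apart from the other JA outputs because *octuple* exceeded not only WT but also *quintuple*. *PDF1.2a* had 58.3, 11.6 and 17.6 CPM in *octuple*, 7.55, 6.18 and 0.329 CPM in *quintuple*, 18.9, 1.06 and 0.988 CPM in *epn* and 6.27, 0.929 and 0.449 CPM in WT. *Octuple* was 2.97 ± 0.90 above *quintuple*, 2.85 ± 0.42 above *epn* and 3.82 ± 0.32 above WT, and within each replicate number it was the highest of the 4 genotypes. *PDF1.2b* had 10.3, 3.39 and 1.17 CPM in *octuple*, 0.708, 0.0916 and 0 CPM in *quintuple*, 0.997, 0.101 and 0 CPM in *epn* and 0, 0 and 0.0237 CPM in WT. Its counts in WT summed to 1, which gave a ratio to WT of 583 (95% interval 104 to 23051), and *octuple* was 4.70 ± 0.61 above *quintuple*. *PDF1.3* had 15.7, 4.68 and 6.19 CPM in *octuple*, 0.635, 0.802 and 0 CPM in *quintuple*, 2.57, 0.253 and 0.494 CPM in *epn* and 0.0259, 0 and 0.166 CPM in WT, with a ratio to WT of 133 (95% interval 67.1 to 308) and 4.43 ± 0.95 over *quintuple*. *PDF1.2c* rose by 5.57 ± 0.44 over WT, while its 2.70 ± 1.02 over *quintuple* was not called, and its change over WT came to 6.95 without *octuple* replicate 1 and 6.98 without WT replicate 1. *ORA59*, the ERF factor that activates *PDF1.2a*, had 2.99, 2.03 and 1.53 CPM in *octuple* and 1.87, 1.26 and 0.804 CPM in WT and was not called, but it was 2.91 ± 0.66 above *quintuple* (0.195, 0.779 and 0.116 CPM). *THI2.1* and the *VSP* genes ran the other way against *quintuple*, with log2 fold changes of -1.59, -1.59 and -1.61, of which that of *THI2.1* was not called. By edgeR's quasi-likelihood test (Benjamini-Hochberg adjusted), adjusted p against *quintuple* was 0.0425 for *PDF1.2a*, 0.00395 for *PDF1.2b*, 0.0155 for *PDF1.3* and 0.0182 for *ORA59*.

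**Figure D3:**
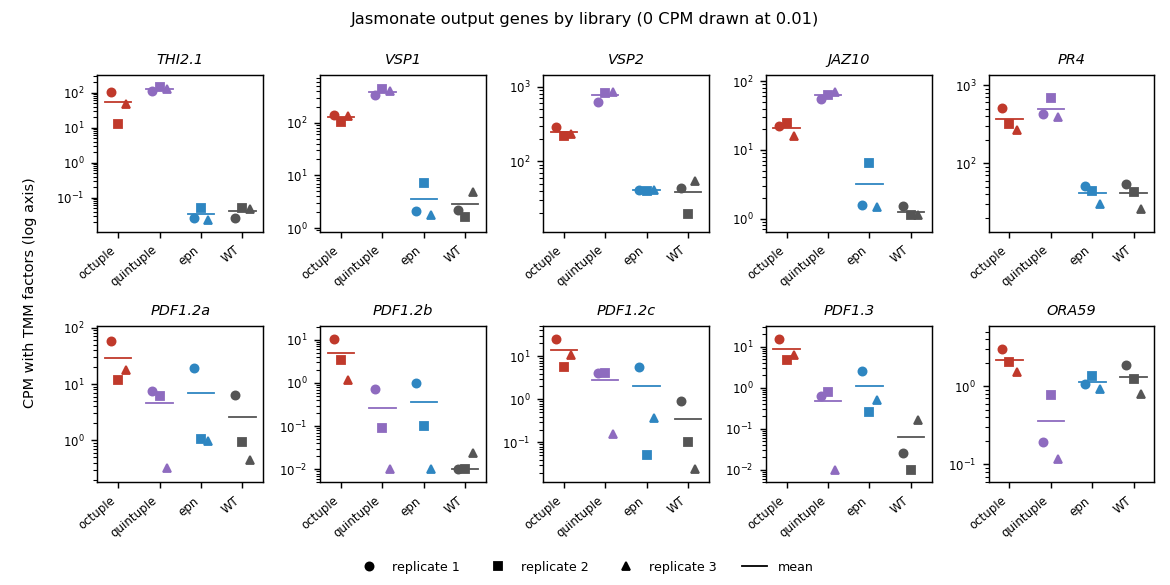
CPM of 10 JA genes in each library on a log axis, by genotype, with values of 0 drawn at 0.01, symbols for replicate numbers and a line at the mean of the 3 libraries. *THI2.1*, *VSP1*, *VSP2*, *JAZ10* and *PR4* are far above WT in *octuple* and as high or higher in *quintuple*, whereas the 4 defensin genes and *ORA59* have their highest means in *octuple*.

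Of the 4 defensin genes, *PDF1.2a* and *PDF1.2b* held a GCC-box, GCCGCC, the element that ERF factors such as ORA59 bind, within 250 bases before to 50 after the start, and these letters were not in that window of *PDF1.2c* or *PDF1.3*. The 250 bases before the start of *PDF1.2a* and *PDF1.2b* are shown here because they hold the element at different distances, 222 bases before the start in *PDF1.2a* and 143 in *PDF1.2b*. Sequences were read from the RefSeq genome (TAIR10.1) at the annotated start, 5′ to 3′ on the strand of the gene, with the GCC-box in capitals. *PDF1.2a* lies on the minus strand (chr5:17907639-17907888) and *PDF1.2b* on the plus strand (chr2:11088873-11089122).
PDF1.2a: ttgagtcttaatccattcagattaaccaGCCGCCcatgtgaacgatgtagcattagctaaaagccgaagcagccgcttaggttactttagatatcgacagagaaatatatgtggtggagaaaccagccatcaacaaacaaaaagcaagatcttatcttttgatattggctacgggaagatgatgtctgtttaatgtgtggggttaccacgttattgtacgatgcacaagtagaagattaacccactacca
PDF1.2b: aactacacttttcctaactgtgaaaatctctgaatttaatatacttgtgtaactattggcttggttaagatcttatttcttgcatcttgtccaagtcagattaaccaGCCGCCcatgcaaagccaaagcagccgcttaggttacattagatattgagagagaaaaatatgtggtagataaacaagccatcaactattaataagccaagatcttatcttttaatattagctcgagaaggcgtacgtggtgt
Over the 250 bases before to 50 after the start, GCCGCC on either strand was present in 1.95% of 976 up-DEG promoters, 2.13% of 141 down-DEG promoters and 2.61% of the promoters of all 23772 genes with a sequence. The JA-related G-box, CACGTG, was present in 9.12%, 3.55% and 8.4% of the same 3 sets.

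Upstream of these outputs the JA pathway itself changed less. Of 13 JA biosynthesis genes tested, 2 were up-DEGs (5.07% of all genes tested were), although all 13 had positive fitted changes (median 0.61). *AOC3*, an allene oxide cyclase, had 12.9, 14.5 and 10.6 CPM in *octuple* and 1.69, 1.88 and 1.18 CPM in WT (3.01 ± 0.15). *AOC2* rose by 1.10 ± 0.13 and fell below the 2-fold threshold without *octuple* replicate 3 or WT replicate 3, when the lowest log2 fold change was 0.95. *LOX2*, *LOX3*, *LOX4* and *OPR3*, which catalyse the first and a later step of the route, had 0.81, 0.80, 0.97 and 0.96 and were not called. Among 12 genes of JA signalling and turnover that were tested, 6 were up-DEGs, with a median of 2.09 over the 12. *JAZ10*, a repressor that JA itself induces, had 22.3, 24.5 and 16.1 CPM in *octuple* and 1.53, 1.13 and 1.14 CPM in WT (4.04 ± 0.16), and *JAZ5* rose by 3.56 ± 0.20. *JAZ1* and the JA-inactivating genes *JOX2*, *JOX3* and *ST2A* rose by 1.97, 2.38, 2.65 and 3.33, and *JOX3* came to 3.33 without *octuple* replicate 1 and 3.32 without WT replicate 1. *MYC2*, the central JA transcription factor, had 56.1, 60.4 and 75.7 CPM in *octuple* and 27.8, 52.2 and 39.6 CPM in WT, a 0.72 change that was not called, and its exons overlap those of *AT1G32630* over 98.5% of their length in 50-base words. Without WT replicate 1, 4 of the 12 signalling genes were up-DEGs, with *JAZ1* (highest adjusted p 0.087) and *ST2A* (0.113) lost by edgeR's quasi-likelihood test (Benjamini-Hochberg adjusted), *ST2A* also without *octuple* replicate 1.

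Genes of PTI rose in part. Of 22 tested, 8 were up-DEGs and none a down-DEG, against 5.07% and 0.732% of all genes tested, with a median of 0.75. *RLP23*, the receptor for NLP peptides, had 41.3, 15.5 and 45.5 CPM in *octuple* and 7.36, 1.88 and 2.08 CPM in WT (3.28 ± 0.34), and its adaptor *SOBIR1* had 157, 90.7 and 140.3 CPM in *octuple* and 64.1, 49.3 and 31.3 CPM in WT (1.44 ± 0.21). *NHL10* and *FRK1*, reporters of the PTI response, rose by 4.79 ± 0.36 and 3.68 ± 0.65. *LYK5*, the chitin receptor, the co-receptor *BKK1* and *MPK11* rose by 1.66, 1.24 and 2.22. *FRK1* came to 4.66 without *octuple* replicate 1, 4.64 without WT replicate 1, 2.88 without *octuple* replicate 3 and 2.87 without WT replicate 3, and *MPK11* to 1.39 without *octuple* replicate 3 and 1.4 without WT replicate 3. The flagellin receptor *FLS2*, its co-receptor *BAK1* and the chitin co-receptor *CERK1* had 0.11, 0.22 and -0.06 and were not called. Of the 22 genes, 1 was called without the pairing by replicate number, and 3 were called without WT replicate 1. *SOBIR1*, *FRK1*, *WRKY53*, *LYK5* and *MPK11* were lost, with highest adjusted p values of 0.0866, 0.067, 0.0851, 0.134 and 0.142 by edgeR's quasi-likelihood test (Benjamini-Hochberg adjusted). *LYK5* and *MPK11* were also lost without *octuple* replicate 1, and *BKK1* fell below the 2-fold threshold without replicate 3 of either genotype.

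Cysteine-rich receptor-like kinases (CRKs), surface kinases with extracellular cysteine motifs, were called often. Of 36 *CRK* genes tested, 16 were up-DEGs and 1 was a down-DEG, against 5.07% and 0.732% of all genes tested, with a median of 1.18. Of the up-DEGs, 10 lie in the tandem run of *AT4G23* loci on chromosome 4. *CRK11* had 18.5, 12.3 and 15.2 CPM in *octuple* and 5.13, 2.94 and 3.81 CPM in WT (1.97 ± 0.12), *CRK14* had 23, 21.4 and 23.4 CPM in *octuple* and 4.9, 2.11 and 1.25 CPM in WT (3.18 ± 0.33), and *CRK6* had 54.8, 33.9 and 78.4 CPM in *octuple* and 8.06, 1.81 and 1.85 CPM in WT (4.01 ± 0.44). In all 3 genes the genotypes did not overlap, and *CRK6* came to 4.84 without replicate 1 of either genotype, 3.39 without *octuple* replicate 3 and 3.38 without WT replicate 3. *CRK40*, outside the run, had 135, 117 and 125 CPM in *octuple* and 53.2, 37.6 and 44.2 CPM in WT (1.49 ± 0.08), and with 114, 100.2 and 117 CPM in *quintuple* it was not called between the mutants. *CRK30* was the exception in direction, with 11.8, 10.2 and 5.48 CPM in *octuple*, 0.147, 1.31 and 0.0193 CPM in *quintuple* and 21.9, 32.3 and 11.8 CPM in WT (-1.22 ± 0.15 against WT, 4.92 ± 0.88 against *quintuple*). The *CRK30* fold change came to just under 2 without *octuple* replicate 2. Against *quintuple*, 26 of 38 *CRK* genes tested were called lower in *octuple* and 2 higher, beside 15.3% and 17.7% of all genes tested. Against WT, 12 *CRK* genes were up-DEGs without WT replicate 1 and 6 without the pairing by replicate number. Neighbouring *CRK* genes are similar in sequence, and 22.0% of the 50-base words in *CRK6* exons also occur in other genes. Single values in the run are therefore uncertain, and so is the family count, which is made up of these calls.

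WRKY transcription factors, which bind the W-box (TTGACC or TTGACT), had 13 up-DEGs and 1 down-DEG among 47 tested (median 0.56). Over all genes tested, 5.07% were up-DEGs and 0.732% down-DEGs. *WRKY53*, a senescence and defence regulator, had 27.8, 19 and 32.4 CPM in *octuple* and 4.25, 4.65 and 1.21 CPM in WT (3.04 ± 0.44), and *WRKY48* had 11, 11.2 and 8.68 CPM in *octuple* and 1.22, 1.28 and 0.71 CPM in WT (3.29 ± 0.18). *WRKY38* rose by 4.84 ± 0.57 and *WRKY47* by 1.70 ± 0.10. Leaving out *octuple* replicate 3 or WT replicate 3 brought *WRKY53* to 2.37, and *WRKY38* ranged between 3.99 without *octuple* replicate 3 and 5.55 without WT replicate 1. Without the pairing by replicate number, 3 *WRKY* genes were up-DEGs. When WT replicate 1 was left out, 6 *WRKY* genes were up-DEGs and *WRKY53* was not (highest adjusted p over the omissions 0.0851 by edgeR's quasi-likelihood test (Benjamini-Hochberg adjusted)). The promoter of *CRK11* is shown because it holds 4 W-boxes, and that of *NIMIN2* because it holds the W-box, the TGA element and the CBP60g and SARD1 motif together. They are RefSeq sequences (TAIR10.1) of the 250 bases before the start, 5′ to 3′ on the strand of the gene, which is minus for both (chr4:12143859-12144108 for *CRK11*, chr3:9471040-9471289 for *NIMIN2*). Capitals in *CRK11* mark W-boxes on either strand. Capitals in *NIMIN2* mark, in order, the motif bound by CBP60g and SARD1 on the opposite strand, 2 W-boxes on the opposite strand, and a pair of overlapping TGA elements (TGACG, one on each strand).
CRK11: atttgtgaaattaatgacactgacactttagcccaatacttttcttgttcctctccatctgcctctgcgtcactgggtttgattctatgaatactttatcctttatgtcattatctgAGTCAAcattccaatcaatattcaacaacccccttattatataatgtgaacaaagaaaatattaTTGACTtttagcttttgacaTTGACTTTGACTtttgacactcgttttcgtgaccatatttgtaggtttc
NIMIN2: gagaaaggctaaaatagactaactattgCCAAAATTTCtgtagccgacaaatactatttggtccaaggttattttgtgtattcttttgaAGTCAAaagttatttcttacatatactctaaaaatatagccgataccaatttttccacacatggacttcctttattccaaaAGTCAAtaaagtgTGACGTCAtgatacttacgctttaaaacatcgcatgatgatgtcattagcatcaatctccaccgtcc
The W-box occurred in 45.3% of up-DEG promoters (442 of 976), 29.8% of down-DEG promoters and 32.6% of all promoters. TGACG occurred in 26.6%, 16.3% and 23.4%, the CBP60g and SARD1 motif in 0.41%, 0% and 0.282%, and the clock's evening element, AAAATATCT, in 3.89%, 2.84% and 2.91% of the same 3 sets. A W-box and TGACG can overlap by 1 letter at an end, and the shares describe letters in this window only.

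Of the mutated ETI genes, *EDS1* was a down-DEG and *PAD4* and *NDR1* were not called, as given above. Another 9 ETI genes were tested, while 5.07% of all genes tested were up-DEGs and 0.732% down-DEGs. At those shares a list this short would hold few calls. None of the 9 (*SAG101*, the helper NLR genes *ADR1*, *ADR1-L1*, *ADR1-L2*, *NRG1A* and *NRG1B*, and the receptor genes *RPS2*, *SNC1* and *RPP4*) was called by edgeR's quasi-likelihood test, by DESeq2 or with any library left out. Their log2 fold changes ran between -0.77 (*RPS2*) and 0.59 (*SAG101*), and 6 of them had an unadjusted p below 0.05 (31.2% of all genes tested did). Against *quintuple*, 6 of the 9 were called lower, as were 15.3% of all genes tested. The exons of *RPS2* lie wholly within other annotated genes, so its counts are uncertain. Of the 11 NLR genes that the study had picked by RT-qPCR in the *cbp60b* single mutant, 8 were tested here and 2 were up-DEGs. Neither of the 2 was called without the pairing by replicate number. *AT5G66630* had 19.8, 11.3 and 11.6 CPM in *octuple*, 40.8, 36 and 53.6 CPM in *quintuple* and 3.45, 0.954 and 1.06 CPM in WT (3.12 ± 0.23). *RMG1* had 2.48, 1.36 and 1.36 CPM in *octuple*, 46.5, 25.8 and 43.7 CPM in *quintuple* and 0.156, 0 and 0 CPM in WT, with a ratio of summed counts of 34.7 (95% interval 15.7 to 95.5) to WT. *TN2* was near the detection limit in both *octuple* (0, 0.0248 and 0.0216 CPM) and WT (0, 0 and 0.0237 CPM), and *SOC3* had 0.03.

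Genes of camalexin and related tryptophan-derived phytoalexins rose nearly throughout, with 7 up-DEGs among 8 tested (median 2.61). For this list and the 2 below, the share of up-DEGs over all genes tested was 5.07%. *CYP79B2* and *CYP79B3*, which convert tryptophan to indole-3-acetaldoxime, had 147, 108 and 117 CPM and 132, 93 and 74.5 CPM in *octuple*, against 47.5, 22.9 and 34.3 CPM and 47, 32.9 and 33.4 CPM in WT (1.87 ± 0.12 and 1.38 ± 0.09). Neither was called between *octuple* and *quintuple* (234, 222 and 121 CPM and 165, 116 and 68.6 CPM in *quintuple*). The next enzymes, *CYP71A12* and *CYP71A13*, rose by 4.89 ± 0.22 and 3.46 ± 0.82, and *PAD3*, the last step to camalexin, had 14.4, 5.92 and 13.7 CPM in *octuple* and 6.07, 0.477 and 0.449 CPM in WT (2.96 ± 0.62), WT replicate 1 overlapping *octuple*. *PAD3* ranged between 2.1 without WT replicate 3 and 4.31 without WT replicate 1, and *CYP71A13* between 2.34 and 5.39 without the same libraries. The omission of *octuple* replicates 3 and 1 gave 2.16 and 4.30 for *PAD3* and 2.39 and 5.36 for *CYP71A13*. Without the pairing by replicate number, 2 genes of the list were called. Without WT replicate 1, 6 genes of the list were called, *CYP71A13* being lost (highest adjusted p 0.0612 by edgeR's quasi-likelihood test (Benjamini-Hochberg adjusted)). Tau and phi glutathione S-transferases, detoxification enzymes, had 9 up-DEGs among 30 tested, with a median of only 0.19. *GSTF6*, which also acts in camalexin synthesis, had 247, 126 and 303 CPM in *octuple* and 71.9, 20.8 and 56.1 CPM in WT (2.27 ± 0.15), and *GSTU6* rose by 3.83 ± 0.23. When WT replicate 1 was left out, 6 of these transferases were up-DEGs. Of 12 oxidative stress genes tested, 2 rose. *RBOHF*, an NADPH oxidase, had 67.2, 55 and 60.9 CPM in *octuple* and 17.6, 13.5 and 13.3 CPM in WT (2.05 ± 0.08), while its relative *RBOHD* had 0.78 and was not called.

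The 8 up-DEGs at the highest levels were of mixed function, and 2 of them encode glucosidases of the endoplasmic reticulum (ER) body. ER bodies are stores of beta-glucosidases in the order Brassicales. *BGLU18*, the beta-glucosidase of wound-induced ER bodies, had 3651, 1391 and 2465 CPM in *octuple*, 4815, 4574 and 5083 CPM in *quintuple* and 228, 155 and 219.5 CPM in WT (3.56 ± 0.16), the highest level of any up-DEG. *PYK10*, the main ER body glucosidase of roots and seedlings, had 761, 624 and 333 CPM in *octuple* and 159, 148 and 128 CPM in WT (1.91 ± 0.17). Their associated proteins *TSA1* and *PBP1*, which were chosen after their values were seen, rose by 2.66 ± 0.14 and 1.29 ± 0.11. The JA-inducible lectin *JR1* had 576, 298 and 406 CPM in *octuple* and 83.3, 55.9 and 91.8 CPM in WT (2.45 ± 0.13). *PRX34*, a cell wall peroxidase of the oxidative burst, had 641, 379.8 and 474 CPM in *octuple*, 4579, 4555 and 7285 CPM in *quintuple* and 129, 82.9 and 197 CPM in WT (1.93 ± 0.20). *EXT4*, an extensin of the wall, *DOT1*, a glycine-rich protein, and *ADC2*, an enzyme of the route to putrescine, rose by 3.87 ± 0.30, 3.02 ± 0.15 and 1.34 ± 0.07. *LTP2*, a lipid transfer protein of the cuticle, had 386, 717 and 319.7 CPM in *octuple*, 218, 142 and 235 CPM in *quintuple* and 18.4, 26.1 and 21.4 CPM in WT (4.36 ± 0.17). Adjusted p of these 8 highest up-DEGs was 3.36e-05 (*LTP2*) to 0.00138 (*PRX34*) by edgeR's quasi-likelihood test (Benjamini-Hochberg adjusted), and every one of these calls was kept when any 1 library was left out.

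The 12 up-DEGs of largest fold change were nearly silent in WT, 9 of them with 0 counts in all 3 WT libraries. *sks15*, of the multicopper oxidase-like SKU5 family of the cell wall, had 13.2, 1.41 and 13.2 CPM in *octuple*, 39, 56.6 and 43.2 CPM in *quintuple* and 0 in *epn* and WT, so it was at least 127-fold higher than a floor of 3 counts per WT library. *EXPA12*, an expansin, had 2.12, 6.49 and 2.2 CPM in *octuple*, 0.317, 0.206 and 0.193 CPM in *quintuple* and 0 in *epn* and WT, at least 47.3-fold higher than WT. *NAMT1*, a methyltransferase that makes methyl nicotinate, had 9.38, 1.16 and 5.33 CPM in *octuple* and 0, 0 and 0.0237 CPM in WT, a ratio of 643 (95% interval 115 to 25430.5). The level in *octuple* exceeded that in *quintuple* for 3 of the 12, while 17.7% of all genes tested in that comparison were called higher. *EXPA12* was 3.75 ± 0.54 above *quintuple*, *AT1G76470*, a Rossmann-fold oxidoreductase gene, had 5.74, 4.16 and 3.54 CPM in *octuple* and 1.22, 1.24 and 0.715 CPM in *quintuple* (2.12 ± 0.27), and *scpl30*, a serine carboxypeptidase-like gene, had 4.17, 2.67 and 0.453 CPM in *octuple* and 0.317, 0.55 and 0.155 CPM in *quintuple* (2.60 ± 0.55). *AT4G01985* had 18.3, 27.4 and 14.1 CPM in *octuple* and 21, 25 and 56.8 CPM in *quintuple* and was not called between the mutants, with a ratio of 593 (95% interval 231 to 2176) over WT. *AT5G40000*, a P-loop nucleoside triphosphatase gene, and *AT1G20740*, whose product has a domain of unknown function, had 1.45, 2.43 and 1.71 CPM and 1.88, 3.37 and 0.669 CPM in *octuple*, at least 24.8-fold and 25.6-fold higher than WT. *AT1G26410*, a berberine bridge enzyme-like gene, and *NCED9*, an enzyme of abscisic acid synthesis, were at least 37.1-fold and 22.4-fold higher. *AT5G44920*, a TIR domain gene, was at least 22.6-fold higher, although 56.6% of its 50-base words also occur in other genes.

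Some single wall genes and phosphate genes had higher levels in *octuple* than in *quintuple*. *XTH19*, a xyloglucan endotransglucosylase chosen after its values were seen, had 87.3, 95.8 and 35.2 CPM in *octuple*, 37.5, 13.8 and 8.85 CPM in *quintuple*, 4.88, 3.43 and 1.32 CPM in *epn* and 1.43, 1.1 and 0.97 CPM in WT. It was 5.89 ± 0.21 above WT and 2.03 ± 0.33 above *quintuple*. *EXPA4* had 142, 204 and 146 CPM in *octuple* and 37, 38.5 and 54.6 CPM in WT (1.92 ± 0.17). Against WT there were 2 up-DEGs and 1 down-DEG among 17 expansins and the same among 21 *XTH* genes, with medians of 0.10 and -0.18. Over all genes tested, 5.07% were up-DEGs and 0.732% down-DEGs. Against *quintuple*, 9 of 18 expansins tested were called higher in *octuple* and none lower, and 11 of 22 *XTH* genes higher and 4 lower. Of all genes tested in that comparison, 17.7% were called higher and 15.3% lower. *GRP5*, a glycine-rich wall protein also chosen after its values were seen, had 248, 225 and 218 CPM in *octuple*, 56.5, 28.6 and 31.5 CPM in *quintuple* and 52.8, 49.4 and 66.9 CPM in WT. Of 7 phosphate starvation genes, 5 were up-DEGs (median 1.55). *SPX1* and *SPX3*, intracellular phosphate sensors, had 32.7, 28.5 and 24.3 CPM and 5.96, 1.02 and 3.39 CPM in *octuple*, against 12.2, 9.27 and 8.0 CPM and 0.0778, 0 and 0.213 CPM in WT (1.55 ± 0.09 and 5.11 ± 0.58). *SPX3* came to 6.44 without *octuple* replicate 3, 6.43 without WT replicate 3 and 4.48 without WT replicate 1. *MGD3*, which makes galactolipid in place of phospholipid, had 16.4, 8.72 and 20.07 CPM in *octuple*, 1.61, 1.44 and 0.213 CPM in *quintuple* and 3.94, 3.39 and 3.67 CPM in WT (1.97 ± 0.21). *SPX1*, *SPX3*, *MGD3* and *SQD2*, the sulpholipid synthase gene, were higher than in *quintuple* by 1.51, 2.93, 3.93 and 1.62, whereas the acid phosphatase gene *PAP17* rose by 1.39 ± 0.09 over WT and had a log2 fold change of -1.42 against *quintuple*. Without WT replicate 1 or *octuple* replicate 1, 4 of the 7 were called, with the phosphate transporter gene *PHT1;1* lost (highest adjusted p 0.0855 by edgeR's quasi-likelihood test (Benjamini-Hochberg adjusted)).

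Down-DEGs were fewer, and those at the highest WT levels included genes of calcium transport and calcium sensing. *CAX1*, which encodes the vacuolar calcium/proton exchanger, fell to 64.3, 63.7 and 64.2 CPM in *octuple*, against 756, 613 and 482 CPM in WT (-3.24 ± 0.12). *Quintuple* was as low as *octuple* (62.8, 70.7 and 74.3 CPM, -0.08 ± 0.13 between the mutants) and *epn* as high as WT (805, 639 and 506 CPM). The other calcium genes differed in *quintuple*. *CAX3*, a paralogue of *CAX1*, had 20.2, 0.966 and 6.43 CPM in *octuple*, 173, 168 and 277 CPM in *quintuple*, 93, 28.6 and 33.9 CPM in *epn* and 56.3, 19.5 and 25.9 CPM in WT (-2.34 ± 0.43 against WT), with *octuple* replicate 1 just inside the WT range. *AT2G46600*, an EF-hand gene, had 13.4, 7.9 and 9.76 CPM in *octuple*, 97.2, 88.3 and 115 CPM in *quintuple*, 72.3, 46.3 and 39 CPM in *epn* and 79, 53.6 and 42.2 CPM in WT (-2.47 ± 0.13). *AT2G41410*, another EF-hand gene, had 32.9, 31 and 20.9 CPM in *octuple*, 105, 109 and 93.8 CPM in *quintuple* and 112, 80.4 and 61.4 CPM in WT (-1.57 ± 0.09). In these 2 genes *octuple* lay below all libraries of the other 3 genotypes. *CML41*, a calmodulin-like gene of plasmodesmata, and *TCH3*, a touch-induced calmodulin-like gene, had log2 fold changes of -3.29 and -2.18. *CAX3*, *CML41*, *TCH3* and *AT2G46600* were chosen after their values were seen. Among 61 genes annotated as EF-hand or calmodulin-like that were tested, a set also drawn up afterwards, 9 were down-DEGs and 6 up-DEGs, and the median was 0.11. Over all genes tested, 0.732% were down-DEGs and 5.07% up-DEGs. The EF-hand and calmodulin-like genes described here are down-DEGs only, so they do not stand for the set. *CAX3* came to -2.94 and -2.96 without *octuple* and WT replicate 1 and to -1.73 without replicate 2 of either genotype, and *CML41* to -2.49 and -2.50 without *octuple* and WT replicate 1. Without WT replicate 1, *CAX3*, *CML41*, *TCH3* and the EF-hand gene *AT2G41090* lost their calls, with highest adjusted p values of 0.0694, 0.0586, 0.0851 and 0.0788 by edgeR's quasi-likelihood test (Benjamini-Hochberg adjusted). The same test gave *CAX1* 3.18e-05 and *AT2G46600* 8.64e-05, and both calls held in every single-library omission.

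The remaining down-DEGs with high WT levels were of mixed function. *AT5G42530*, which encodes a protein of unknown function, had 279, 108 and 327 CPM in *octuple* and 877, 502 and 954 CPM in WT (-1.80 ± 0.13). *GASA1*, a gibberellin-regulated peptide gene, had 62.7, 131 and 81.7 CPM in *octuple*, 36, 52 and 40.8 CPM in *quintuple* and 242, 284 and 167 CPM in WT (-1.36 ± 0.17). The genotypes did not overlap for either gene. *ACD6*, an ankyrin membrane protein that promotes SA signalling, had 81.4, 26.6 and 259 CPM in *octuple* and 223, 83.4 and 283 CPM in WT (-1.07 ± 0.27). Its range in *octuple* overlapped WT, and its call ended without replicate 1 or 2 of either genotype (highest adjusted p 0.275 by edgeR's quasi-likelihood test (Benjamini-Hochberg adjusted)). *AT5G24210*, an alpha/beta-hydrolase gene, had a log2 fold change of -1.20 and was lost in the same omissions (highest adjusted p 0.118 in that test). *AT2G36885*, annotated as a translation initiation factor, had 29.2, 40.9 and 42.4 CPM in *octuple*, 9.72, 5.18 and 5.99 CPM in *quintuple* and 68, 70 and 98.5 CPM in WT (-1.07 ± 0.10), and its fold change came to just under 2 without replicate 3 of either genotype.

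The 12 down-DEGs of largest fold change divided by their level in *epn*. For 10 of the 12, all 3 *epn* libraries also lay below the lowest WT library, and for 11 of the 12 all 3 *quintuple* libraries did. The 12 were picked for high levels in these same WT libraries, which favours such counts. The share of all genes with this order was not counted, so the counts are description only. *AT4G19240* had 0 counts in every *octuple*, *quintuple* and *epn* library and 8.79, 7.46 and 13.6 CPM in WT, at least 143-fold lower in *octuple* at a floor of 3 counts per library. *HISN6B*, a histidinol-phosphate aminotransferase gene of histidine synthesis, had 0, 0.149 and 0.0432 CPM in *octuple*, 0.0488, 0 and 0.0387 CPM in *quintuple*, 0, 0.152 and 0.165 CPM in *epn* and 9.02, 10.7 and 1.28 CPM in WT. Its exons share 81.9% of their 50-base words with *AT5G10330*, so counts may be split between the copies. *AT1G19550* and *AT2G40955* showed the same pattern, and 100% and 84.7% of their words occur in other genes. The 2 genes near WT levels in *epn* were *BT5* and *TCP1*. *BT5*, a BTB and TAZ domain gene, had 0 counts in every *octuple* and *quintuple* library, 11, 9.77 and 5.88 CPM in *epn* and 5.99, 22.3 and 4.68 CPM in WT, at least 155-fold lower in *octuple*. *TCP1*, a transcription factor gene, had 0.0241, 0.0248 and 0.0432 CPM in *octuple*, 0.866, 0.354 and 1.62 CPM in *epn* and 0.985, 0.603 and 1.96 CPM in WT. The call of *TCP1* ended without WT replicate 1 (adjusted p 0.0515 by edgeR's quasi-likelihood test (Benjamini-Hochberg adjusted)), as did those of *AT2G10615*, *AT2G16490*, *AT4G18150*, *AT2G40955* and *AT2G40050*.

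**Figure D4:**
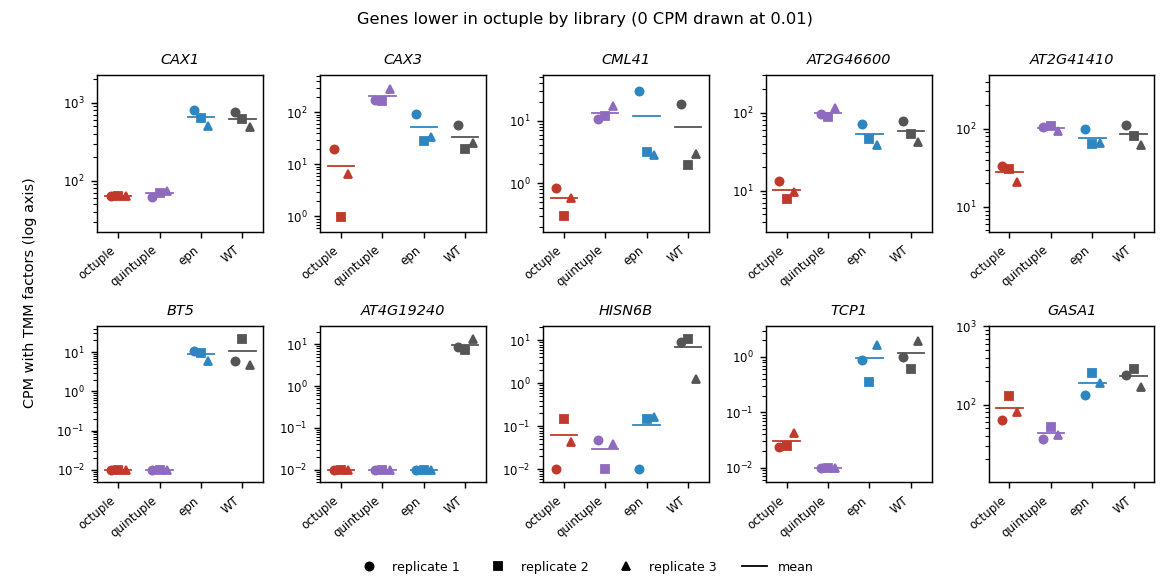
CPM of 10 down-DEGs in each library on a log axis, by genotype, with values of 0 drawn at 0.01, symbols for replicate numbers and a line at the mean of the 3 libraries. *CAX1* is as low in *quintuple* as in *octuple*, *CAX3*, *CML41*, *AT2G46600* and *AT2G41410* have their lowest means in *octuple*, and *AT4G19240* and *HISN6B* are near 0 in all 3 mutants.

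Several programmes showed no call against WT, where 5.07% of all genes tested were up-DEGs and 0.732% down-DEGs. None of 38 photosystem and light-harvesting genes, 4 Rubisco small subunit genes, 19 cell division genes, 18 Aux/IAA genes or 16 heat shock genes was a DEG in edgeR's quasi-likelihood test, and the same held in DESeq2 and with any 1 library left out. Unadjusted p was below 0.05 for 21, 2, 9, 6 and 2 genes of these lists in the order named, and for 31.2% of all genes tested. Median log2 fold changes were -0.16, -0.19, -0.23, 0.10 and -0.14. Against *quintuple*, 33 of the 38 photosystem genes, the 4 Rubisco genes and 11 of the 19 cell division genes were called higher in *octuple*, with medians of 1.44, 2.92 and 1.23. Of all genes tested in that comparison, 17.7% were called higher and 15.3% lower. Genes of senescence were mixed, 4 up-DEGs among 14 tested (median 0.81). *SAG13*, a dehydrogenase gene of early senescence, had 152, 40.3 and 38.9 CPM in *octuple* and 15.9, 1.66 and 0.52 CPM in WT (4.30 ± 0.43), and *DIN11*, a dark-inducible gene, had 17.7, 8.64 and 5.57 CPM in *octuple* and 0.804, 0.728 and 0.0473 CPM in WT (4.43 ± 0.40). *SAG29* and *WRKY75* rose by 1.24 and 3.72 but were lost without replicate 1 of either genotype, and *SAG29* also without replicate 3 of either, when its fold change fell below 2 (highest adjusted p 0.181 and 0.177 in that test). Without WT replicate 1, 2 of the 14 were up-DEGs. *SAG13* came to 5.26 without *octuple* replicate 1 and 5.24 without WT replicate 1, and *WRKY75* to 4.74 without *octuple* replicate 2, 4.73 without WT replicate 2, 3.11 without *octuple* replicate 3 and 3.12 without WT replicate 3. Among 8 genes of the abscisic acid and dehydration response, *NCED3* and *P5CS1* rose by 1.74 and 1.06, and *COR15A* was a down-DEG at -1.66. These 3 calls ended without *octuple* replicate 1 or WT replicate 1, and that of *P5CS1* also without replicate 2 of either genotype (highest adjusted p 0.0901, 0.164 and 0.166 in that test), and all 8 genes were called lower than in *quintuple*. *GAPC1*, a glycolytic gene used as a reference, had 743, 679.9 and 516 CPM in *octuple* and 706, 642 and 524 CPM in WT (0.05), and the terpene synthase gene *TPS10* was at or near 0 in every library.

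**Figure D5:**
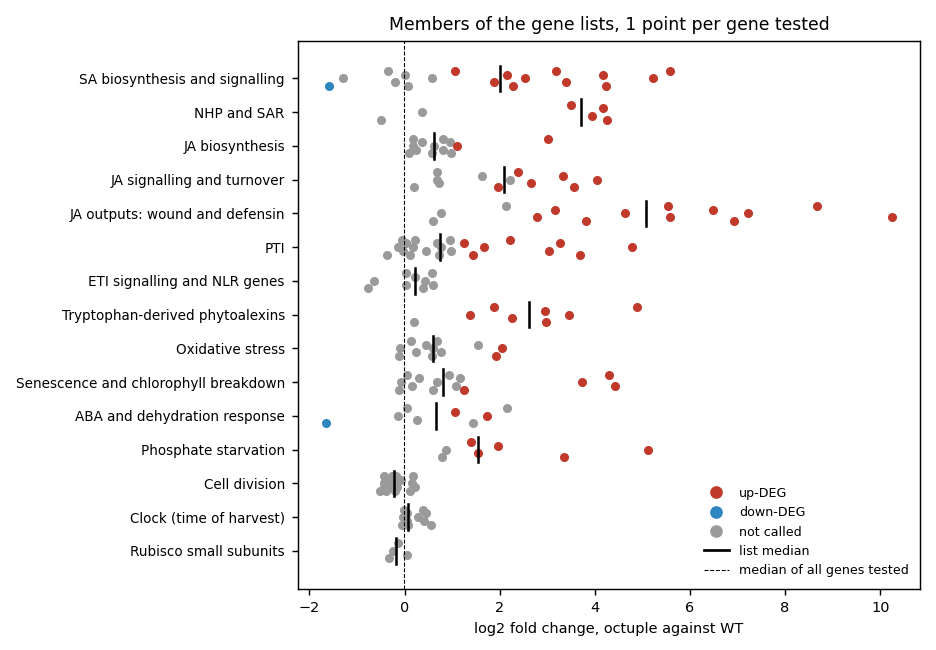
Log2 fold change of *octuple* over WT (horizontal axis) for each gene tested in 15 lists, 1 point per gene, coloured by call, with a bar at each list's median and a dashed line at the median of all genes tested (-0.01). JA outputs have the highest median (5.08), followed by NHP and SAR (3.72) and tryptophan-derived phytoalexins (2.61), while clock, cell division and Rubisco genes have medians near 0.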

How the data were processed

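RNA of the aerial parts was sequenced as 12 libraries, 3 of each of 4 genotypes, and 0 columns of the deposited tables belonged to other samples. The authors deposited a table of raw counts per gene, and a table of FPKM values, which was not used for any test. The submitters' processing notes name HISAT2, HTSeq and R 3.2.0. The versions of HISAT2 and HTSeq, the genome build, the annotation and the strand setting are not given in the sources used here, so reads of overlapping and antisense genes may be misassigned. Columns were matched to samples by name and samples to groups by genotype label.

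Counts were tested with edgeR 4.0.16 in R 4.3.3 (glmQLFit and glmQLFTest, limma 3.58.1) after filterByExpr and TMM scaling, with the replicate number as a block and Benjamini-Hochberg adjusted p over all genes tested. A DEG needed at least a 2-fold change at an adjusted p under 0.05, the thresholds of the study, whose own tool was DESeq2. DESeq2 1.42.0 served as an alternative. The procedure was also run on simulated counts, drawn for both genotypes from the WT rates of each replicate number at a fixed dispersion. That run checks the code only, because the pairing was built into it, and it does not show how the fit behaves on these libraries. The block was set by the plan of this comparison. Deviations from the group means correlated between *octuple* and WT libraries of the same number (r = 0.51, 0.39 and 0.69 over genes). Across numbers, r was 0.24 for *octuple* replicate 1 with WT replicate 2 and 0.11 for *octuple* replicate 2 with WT replicate 1. It was negative wherever replicate 3 was set against another number. The labels give only the shared numbers. CPM used TMM factors over the 12 libraries. No source states that the pools of a genotype came from separate sowings, although the paper calls its 3 replicates independent. The p-values of the paired fit measure how the difference between genotypes varied between replicate numbers, within these pools. Depth was 38698646 to 44294404 counted fragments per library, where 3 counts, used as the floor for genes at 0, come to 0.0580 to 0.0787 CPM. Ratios of genes with 1 to 9 summed counts in a genotype carry exact 95% binomial intervals, which cover counting error only.

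The members and lists were chosen with earlier results of these data known. Named genes were the 8 mutated genes, the 12 DEGs in each direction with the largest fold change that averaged 10 counts or more in the higher genotype and did not overlap, the 8 DEGs in each direction with the highest CPM, list members, and the genes in the study's data statement. Other genes are stated as chosen after their values were seen. Promoters were read from the RefSeq genome and annotation of TAIR10.1, in which 23772 of the 23784 genes had a sequence. Shared sequence was measured as the share of a gene's exonic 50-base words that occur in exons of other genes. Alternatives were the fit without the block, DESeq2, all 12 libraries in one fit, other scalings, no filter on low counts, a test against a 2-fold change and the omission of single libraries and of pairs.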

Additional observations from a re-analysis of the deposited data

How the results depend on the processing

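The 977 up-DEGs and 141 down-DEGs stayed within 1.5 times these counts with DESeq2, with all 12 libraries in one fit, with library size only, with RLE or upper-quartile factors and without a filter on low counts. Without the replicate block, that is without the pairing by replicate number, they were 342 and 29, and in a test against a fold change of 2 (glmTreat) 453 and 31. The fit without the block left 1 up-DEG among tau and phi glutathione S-transferases and 0 among senescence genes. JA signalling and turnover and phosphate starvation had 3 each. The omission of single libraries or pairs gave 468 to 1008 up-DEGs and 39 to 196 down-DEGs. The lowest up-count came without the pair of replicate 1 and the lowest down-count without that pair or without WT replicate 1. The cause was not tested. Of the 123 DEGs named in the text, 88 kept their call in all 6 omissions of a single library, 122 in DESeq2, 111 in the fit of all 12 libraries, 89 in the test against a 2-fold change and 57 without the replicate block, and none changed sign under any alternative. All 123 kept it under the 3 other scalings. Because the fit was paired, the 6 omissions amount to 1 check per replicate number. *PR1*, for example, came to 7.18 without *octuple* replicate 1, 7.17 without WT replicate 1 and 7.18 without both. Over all genes tested the median change (log2) lay between -0.06 and 0.02 under every scaling, and up-DEGs made up 83.3% to 93.6% of the calls across alternatives. With 3 libraries per genotype, an unpaired exact permutation test of a single gene could not go below p = 0.10. The lowest p of a permutation test that keeps the pairing is higher still.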

Other observations

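Calls in further gene families are given here beside the shares over all genes tested, 5.07% up-DEGs and 0.732% down-DEGs. Of 15 *SAUR* genes tested, 1 was an up-DEG, *SAUR36* (3.06, 1.46 and 1.21 CPM in *octuple*, 0.441, 0.402 and 0.213 CPM in WT, 2.38 ± 0.38), a gene associated with leaf senescence, and it lost its call without WT replicate 1 or *octuple* replicate 1. Against *quintuple*, 10 of 13 *SAUR* genes tested were called higher in *octuple* and 1 lower, beside 17.7% and 15.3% of all genes tested. Of 5 type-A response regulator genes of cytokinin signalling, 3 were called higher than in *quintuple*, while the median log2 fold change of the 5 was 0.04 against WT. Among 129 tested genes annotated with a TIR or NBS-LRR domain, a set drawn up after values were seen, 8 were up-DEGs and 3 were down-DEGs, with a median log2 fold change of 0.06. *SIM*, a cyclin-dependent kinase inhibitor gene that promotes endoreduplication, had 6.2, 5.05 and 7.32 CPM in *octuple*, 1.27, 1.9 and 2.05 CPM in *quintuple* and 8.66, 7.83 and 9.18 CPM in WT. It was not called against WT (-0.48 ± 0.13) and was 1.87 ± 0.26 above *quintuple*. *DIR1*, a lipid transfer protein gene of SAR, had 25.7, 21.3 and 11.3 CPM in *octuple*, 3.98, 3.96 and 1.78 CPM in *quintuple* and 15.5, 14.2 and 13.4 CPM in WT, and its exons lie wholly within those of *AT5G48480*.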
